A study of Zea mays with 24 samples.

Results

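The genes described here are the 150 maize genes whose transcript level rose most steeply towards the tip of the leaf, out of 39634 genes in the deposited tables. They were chosen from the levels themselves. For each gene the mean of the 2 group levels was taken in each of 4 leaf segments, genes of at least 10 FPKM (fragments mapped to a gene, corrected for its length and for the depth of the library) at the tip segment +10 were kept, which left 8183, and these were ranked by a tip score. The tip score is the log2 ratio of the mean level at +10 to the highest mean level in any other segment, with 1 FPKM added to both, and the 150 genes with the highest score are called tip genes below. The rise along the leaf is therefore how they were picked and is described without a test.

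The samples were segments of leaf 2 from 9-day-old plants of the strain W22, of genotype dct2-1 or wildtype. dct2-1 is a mutant allele of pDCT2, a gene for a chloroplast dicarboxylate transporter that takes part in the malate traffic of C4 photosynthesis, in which mesophyll and bundle sheath cells share the fixation of carbon. Each genotype had 3 libraries at each of the segments -4, -1, +4 and +10, 24 libraries in 8 groups, every library being a pool of 15 plants grown under 16 h of light at 28 degrees C. Segments were placed relative to the ligule, with -4 at the base of the blade, -1 at the change from sugar import to export, +4 in the lit middle and +10 at the tip. The authors' deposited tables, 1 per segment, hold 1 level per gene for each of the groups q2 and q1, pooled over libraries, so no spread between libraries can be given. The tables do not say which group is which genotype, so every difference is q2 relative to q1. pDCT2 itself was called lower in q2 in all 4 segments. From -4 to +10 it had 7.84, 12.5, 8.91 and 9.50 FPKM in q2, and 37.8, 657, 633 and 310.4 FPKM in q1.

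Levels, tests and adjusted p-values are Cuffdiff's, taken for each segment from the authors' deposited table, and a gene is called higher or lower where that adjusted p is under 0.05. The value after ± is a standard error implied by the table, the log2 change of q2 over q1 divided by the deposited statistic. Calls follow the deposited adjusted p and not this error, and the 2 can disagree where a group is near 0. The tip gene TPS2, for example, had -9.72 ± 2.28 at +10 and was not called. Read depth is unknown. The tables were made separately, so levels set across segments are descriptive, and comparisons across them take q2 to be the same genotype in each. In bulk tissue, fewer cells of a type and less RNA per cell cannot be told apart.

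A maize leaf grows from its base, so cells divide near the base, expand and build their chloroplasts further up, and are oldest at the tip. Old leaf tissue is known for dismantling chlorophyll, breaking down protein with vacuolar proteases and exporting the freed nitrogen and sugar. The replication genes MCM6 and MCM7 followed this order, with 29.6 and 32.2 FPKM in q2 and 39.3 and 41.4 FPKM in q1 at -4, and under 1 FPKM in both groups at +10. The mesophyll enzyme gene pep1 had 5336 FPKM in q2 and 10125 FPKM in q1 at +10, and the bundle sheath enzyme gene me3 had 3468 FPKM in q2 and 2935 FPKM in q1, so markers of both C4 cell types were present at the tip.

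The tip genes were nearly silent at the base. Their median mean level was 0.768 FPKM at -4, 2.28 FPKM at -1, 8.60 FPKM at +4 and 27.8 FPKM at +10. At -4, 86 of the 150 lay under 1 FPKM, and 101 rose at each step from -4 to +10. The tip was a median of 2.64-fold above the next highest segment, with a range of 2.14-fold to 11.6-fold. The excess reached 4-fold in 27 genes and 8-fold in 3 genes. The next highest segment was +4 for 134 genes, -1 for 11 and -4 for 5. Among all 8183 genes of at least 10 FPKM at +10, 2812 (34.4%) were highest there.

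Levels at the tip ran from 10.04 to 3174 FPKM with quartiles at 15.0 and 86.2 FPKM. Most tip genes were modest: 57 had 10 to 20 FPKM at +10, 33 had at least 100 FPKM and 3 had at least 1000 FPKM. These 3 were bss1, GRMZM2G022958 and GRMZM2G070167. RefSeq holds 115 of the 150 identifiers, 31 of them with a usable symbol, so 119 are known here by identifier only.

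The lowest ranks show how little separates a tip gene from its neighbours in the ranking. GRMZM2G177518, GRMZM2G049031 and GRMZM2G137775, at ranks 148 to 150, each had a score of 1.10. GRMZM2G478568, GRMZM2G015955 and GRMZM2G105473, at ranks 151 to 153 and outside the set, each had 1.09. GRMZM2G137775 had 38.8 FPKM in q2 and 28.0 FPKM in q1 at +4, and 69.2 FPKM in q2 and 75.9 FPKM in q1 at +10. GRMZM2G478568 had 81.5 FPKM in q2 and 76.5 FPKM in q1 at +4, and 140 FPKM in q2 and 199 FPKM in q1 at +10.

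**Figure D1:**
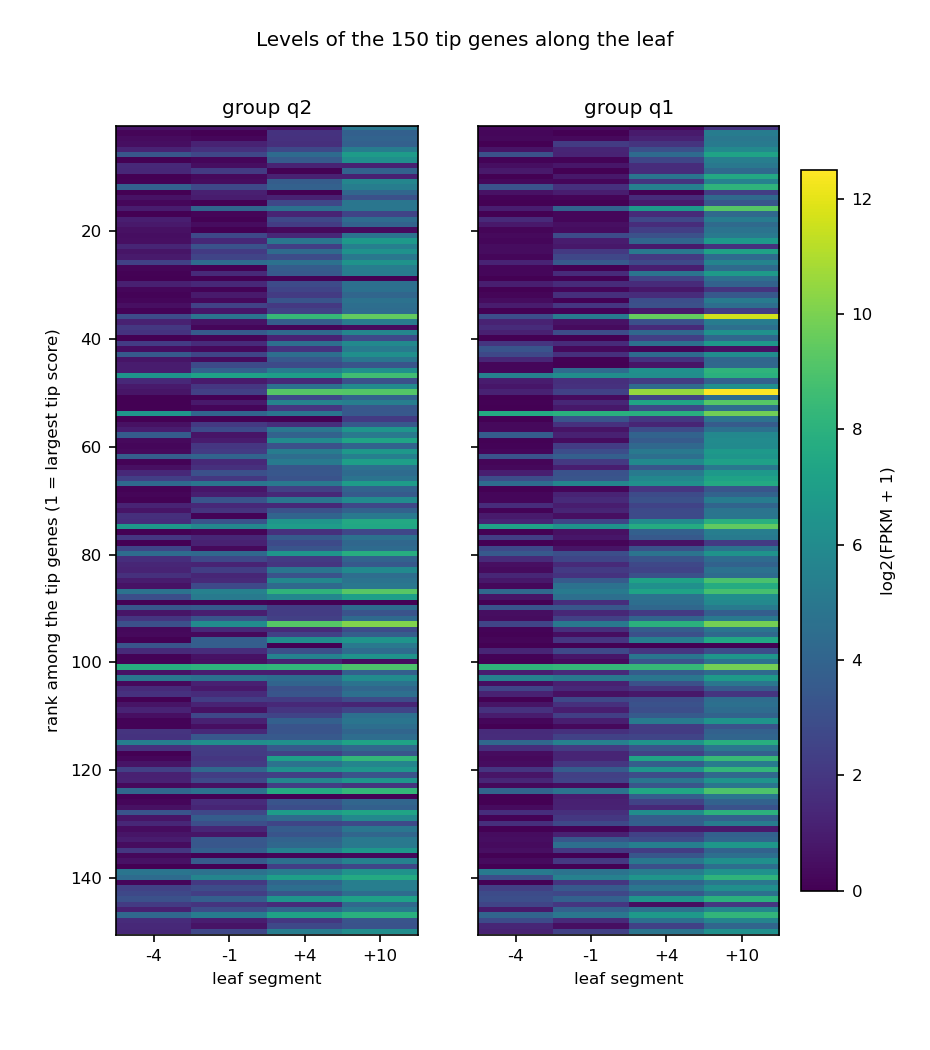
Levels of the 150 tip genes in the 4 leaf segments, group q2 on the left and group q1 on the right, as log2(FPKM + 1), with 1 row per gene ordered by tip score. Rows brighten towards +10 in both groups, and a few rows that are bright at +10 in q1 stay dark in q2, among them rank 10 (MYBR87, 1.21 FPKM in q2 and 187 FPKM in q1).

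The rise to the tip was shallower in q2 for most of the genes so chosen. The tip score computed within a group had a median of 1.16 in q2 and 1.63 in q1, while the median over all 8183 genes was -0.36 in q2 and -0.39 in q1. The score was higher in q2 for 36 tip genes and higher in q1 for 114. The level at +4 was a median of 40.5% of the level at +10 in q2 and 27.8% in q1. A score of at least 2-fold was held by 92 genes in q2 and 136 in q1. In q2, 136 tip genes were highest at +10, in q1 146, and in both groups 132. The scores come from the levels that chose the genes and carry no test, and they moved with the group that chose. The 37 tip genes among the top 150 of q2 but not of q1 had a median score of 1.36 in q2 and 1.11 in q1, and the 46 among the top 150 of q1 but not of q2 had 0.65 in q2 and 1.71 in q1.

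In 14 tip genes q2 peaked in another segment. Among those with a symbol, bx1 and MYBR47 were highest in q2 at -4, TPS2 at -1, and bss1 and RADIALIS at +4. The 4 genes not highest at +10 in q1 were GRMZM2G052908 and GRMZM2G010433, highest at -4, GRMZM2G498613, listed at 0 in q1 in all 4 segments, and the aquaporin gene TIP3-1, whose levels of 0.843 FPKM at +4 and 0.842 FPKM at +10 in q1 were almost equal.

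**Figure D2:**
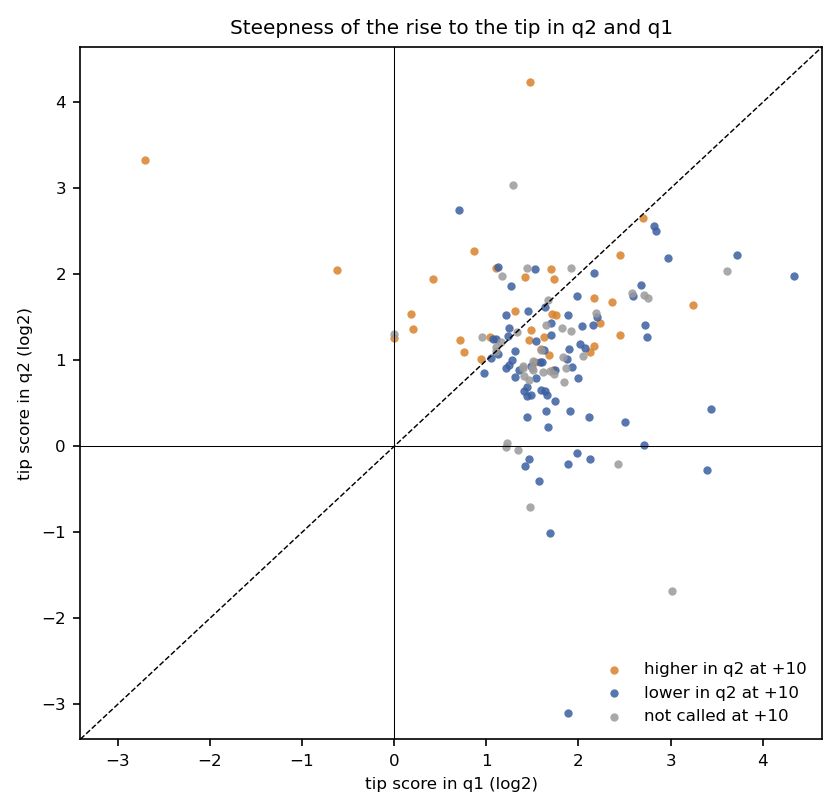
Tip score of each of the 150 genes in q2 (vertical axis) and in q1 (horizontal axis), on a log2 scale, coloured by the Cuffdiff call at +10, with a dashed line where both are equal. 114 genes lie below the line and 36 above it, and 14 lie where the score in q2 is below 0.

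At the tip, more tip genes were lower in q2 than higher. All 150 were tested, and the authors' deposited table called 35 higher in q2, 75 lower and left 40 uncalled, which is 73.3% called. Over all 16272 genes tested at +10 the table called 43.8%, with 21.5% higher and 22.3% lower, and over the 8183 genes of at least 10 FPKM it called 50.2%, with 25.7% higher and 24.5% lower. The median log2 change of the tip genes was -0.52, against 0.04 over the 8183 genes. Dividing each group by its sum of FPKM over all genes moved the median of all genes by 0.35 log2 at +10 and left the tip genes at -0.17, with no called direction changed. The change was at least 2-fold in 20 of the higher and 40 of the lower genes. The rule used the mean of these same levels, so a gene high in 1 group alone could enter. At +10, 101 tip genes reached 10 FPKM in both groups, 32 only in q1 and 17 only in q2. Of the 101, 20 were called higher and 51 lower. The share called therefore describes the genes so chosen and is no separate result about them. Together the tip genes made up 1.55% of all FPKM at +10 in q2 (10415 FPKM) and 2.74% in q1 (23451 FPKM).

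This lean depended on which group chose the genes. When the same rule was applied to the levels of q1 alone, 29 of 150 genes were higher in q2 and 81 lower at +10, with a median log2 change of -0.57. Applied to q2 alone it gave 72 higher and 38 lower with a median of 0.41. The genes chosen by q2 alone and by q1 alone had 86 and 95 members in common with the 150 tip genes, and 49 genes were in both. Those 49 steep in both groups, which include CKX10, see2b, chn1, incw1, Ann5, In2-2, GST39 and NAC75, had 16 higher and 20 lower calls at +10 and a median of -0.28. Their median tip score was 1.43 in q2 and 2.05 in q1.

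**Figure D3:**
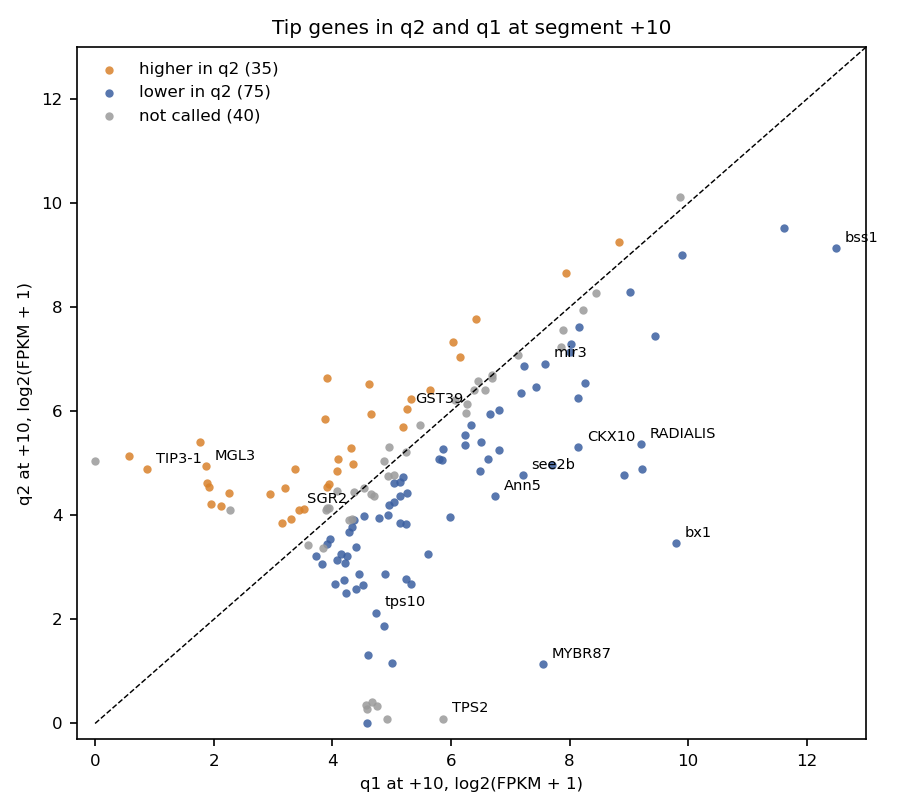
Level of each of the 150 tip genes at +10 in q2 (vertical axis) and q1 (horizontal axis), as log2(FPKM + 1), with colours for genes called higher in q2 (35), lower in q2 (75) or not called (40) in the authors' deposited table and a dashed line of equality. bss1, bx1, RADIALIS and MYBR87 lie far below the line, TIP3-1 and MGL3 above it.

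Vacuolar and cysteine proteases with a tip peak were lower in q2. see2b (GRMZM2G093032, chromosome 3, 225822958 to 225828669) encodes a vacuolar processing enzyme of the legumain type known from senescing maize leaves. It had 3.95, 3.09, 8.16 and 26.3 FPKM in q2 at -4, -1, +4 and +10, against 6.56, 8.97, 53.2 and 148 FPKM in q1. The level in q2 was below that in q1 in every segment and Cuffdiff called all 4 differences, with log2 changes of -0.73 ± 0.35, -1.54 ± 0.43, -2.71 ± 0.33 and -2.49 ± 0.26 along the leaf. Although the levels differed 5.63-fold at +10, the tip score was 1.57 in q2 and 1.46 in q1.

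The cysteine protease genes mir3 and ccp1 were more abundant and differed less. mir3 had 18.3, 28.4, 32.3 and 119.8 FPKM in q2 from -4 to +10, and 20.1, 50.6, 78.6 and 190.9 FPKM in q1. It was lower in q2 at -1, +4 and +10, by -0.67 ± 0.26 log2 at the tip. ccp1 had 29.3, 23.5, 19.996 and 64.2 FPKM in q2, and 44.3, 30.9, 29.2 and 111 FPKM in q1. It was lower by -0.79 ± 0.25 log2 at +10 and also called lower at -4 and +4. With the groups scaled to equal sums, ccp1 had -0.09 at +4 and -0.44 at +10. Under that scaling mir3 had -0.83 at +4 and -0.32 at +10. Of the 5 tested genes that carry a see, ccp, mir or sag symbol, alone or followed by digits only, 4 were lower in q2 and mir2 was not called in the authors' deposited table at +10 (Cuffdiff), with a median log2 change of -0.78 against 0.02 for all tested genes. Of these 5, mir3 and ccp1 are tip genes, and see2b falls outside the list because its symbol ends in a letter.

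SGR2, a stay-green gene of chlorophyll breakdown, went the other way. Its level was 0.0905, 0.887, 3.49 and 16.3 FPKM in q2, and 0.135, 2.24, 2.00 and 9.79 FPKM in q1. It was lower in q2 at -1 (-1.34 ± 0.66) and higher at +4 (0.80 ± 0.56) and +10 (0.73 ± 0.31). Among the 3 tested genes matched by symbol to the chlorophyll breakdown list, SGR2 was higher at +10 and lls1 was not called. MPAO was lower, but that symbol is used for a polyamine oxidase, so it is not read here as a chlorophyll gene.

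Defence and specialised metabolism held some of the deepest differences. bx1 (GRMZM2G085381, chromosome 4, 3256233 to 3258478) makes indole for the first step of benzoxazinoid synthesis, the main chemical defence of young maize. In q2 it had 93.8, 16.1, 28.4 and 10.0 FPKM, against 201, 240.5, 237 and 890.4 FPKM in q1. The groups thus had opposite gradients: q2 was highest at the base and lowest at the tip, where q1 was 88.7-fold higher. The log2 changes of bx1 were -1.10 ± 0.26, -3.90 ± 0.38, -3.06 ± 0.33 and -6.47 ± 0.32. The 9 tested genes of the benzoxazinoid list were all called lower in q2 at +10 (Cuffdiff), with a median log2 change of -3.35, and bx1 was the only one of them among the tip genes.

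Terpene synthases make volatile defence compounds, and 3 of them were tip genes with little transcript in q2. tps10 had 0, 0.0523, 0.0191 and 3.38 FPKM in q2, and 0, 8.21, 3.01 and 25.6 FPKM in q1, and was called lower only at +10 (-2.92 ± 0.38). TPS2 had 0.0551, 0.103, 0 and 0.0683 FPKM in q2, and 0, 2.16, 22.1 and 57.6 FPKM in q1. TPS3 had 0.0360, 0.0260, 0.0302 and 0.0648 FPKM in q2, and 0, 1.03, 12.0 and 29.4 FPKM in q1. Both rose along the leaf in q1 and stayed near 0 in q2, yet the authors' deposited table called neither at +10 (Cuffdiff adjusted p = 0.349 for TPS2 and 0.344 for TPS3). TPS2 was called lower at +4, where it is listed at 0 in q2. The pair lies on chromosome 5 with 114421 bases between the loci (71263183 to 71383513), and the sources used here do not say how reads shared by similar genes were counted. The list of terpene symbols had 11 genes tested at +10, 6 higher and 3 lower in q2 with a median log2 change of 0.83, but the symbol TPS is also used for trehalose phosphate synthases, so it may not describe terpene genes alone.

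A chitinase and a pathogenesis-related gene were both lower in q2 at the tip. chn1, a chitinase gene, had 0.389, 1.27, 2.17 and 13.5 FPKM in q2, and 0.0320, 3.47, 2.72 and 34.1 FPKM in q1. pr5, a pathogenesis-related gene, had 0.536, 0.963, 1.32 and 7.51 FPKM in q2, and 0.0766, 0.111, 1.90 and 17.5 FPKM in q1. At +10 the log2 change was -1.34 ± 0.31 for chn1 and -1.22 ± 0.41 for pr5, and neither was called at +4. At -1 chn1 was lower in q2 (-1.45 ± 0.63), while pr5 was not tested. Their list had 4 tested genes at +10, of which 3 were lower in q2 and chiI was not called.

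Several hormone and regulatory genes differed between the groups at the tip. CKX10 (GRMZM2G348452), a cytokinin dehydrogenase that degrades cytokinin, had 13.8, 5.61, 14.0 and 38.7 FPKM in q2, and 8.09, 2.27, 42.0 and 283 FPKM in q1. It was higher in q2 at -4 (0.77 ± 0.38) and -1 (1.30 ± 0.63) and lower at +4 (-1.59 ± 0.38) and +10 (-2.87 ± 0.30). The order of the groups was thus opposite in the lower and the upper segments of the leaf.

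MYBR87, named for a MYB-related transcription factor, had 0, 0.246, 1.18 and 1.21 FPKM in q2, and 0, 0.738, 27.7 and 187 FPKM in q1. In q2 it stayed close to 1 FPKM in the upper leaf, and it was lower by -4.55 ± 0.84 log2 at +4 and -7.27 ± 0.86 at +10. RADIALIS, likewise of the MYB-related family, had 0, 0.808, 46.7 and 40.3 FPKM in q2, and 0.0538, 1.56, 158 and 588 FPKM in q1. Its level stopped rising at +4 in q2 but not in q1, and the log2 change was -1.76 ± 0.31 at +4 and -3.86 ± 0.28 at +10. MYBR47 had 0.217, 0, 0.138 and 0.213 FPKM in q2, and 0.0627, 0, 9.32 and 22.9 FPKM in q1, and the authors' deposited tables called it in no segment (Cuffdiff adjusted p = 0.351 at +10). Of 29 tested genes with a symbol or synonym that begins with MYB, 4 were higher and 11 lower in q2 at +10, with a median log2 change of -0.31, less in size than the 0.35 log2 shift of all genes under scaling to equal sums.

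Other regulators differed less. HB127, a homeobox gene, had 1.67, 0.892, 1.73 and 7.40 FPKM in q2, and 0.966, 2.25, 3.58 and 13.2 FPKM in q1, and was lower in q2 at -1, +4 and +10 (-0.84 ± 0.36 at the tip). NAC75, of the NAC transcription factor family, had 2.55, 9.39, 10.1 and 21.0 FPKM in q2, and 2.04, 4.32, 4.95 and 15.9 FPKM in q1. It was higher in q2 at -1 (1.12 ± 0.53) and +4 (1.02 ± 0.51), and at +10 the log2 change was 0.40 ± 0.38 and not called in the authors' deposited table (Cuffdiff adjusted p = 0.122). AUX18 had 1.84, 2.00, 7.26 and 20.2 FPKM in q2, and 1.43, 5.69, 2.91 and 6.72 FPKM in q1, lower in q2 at -1 (-1.51 ± 0.50) and higher at +4 (1.32 ± 0.44) and +10 (1.59 ± 0.31).

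**Figure D4:**
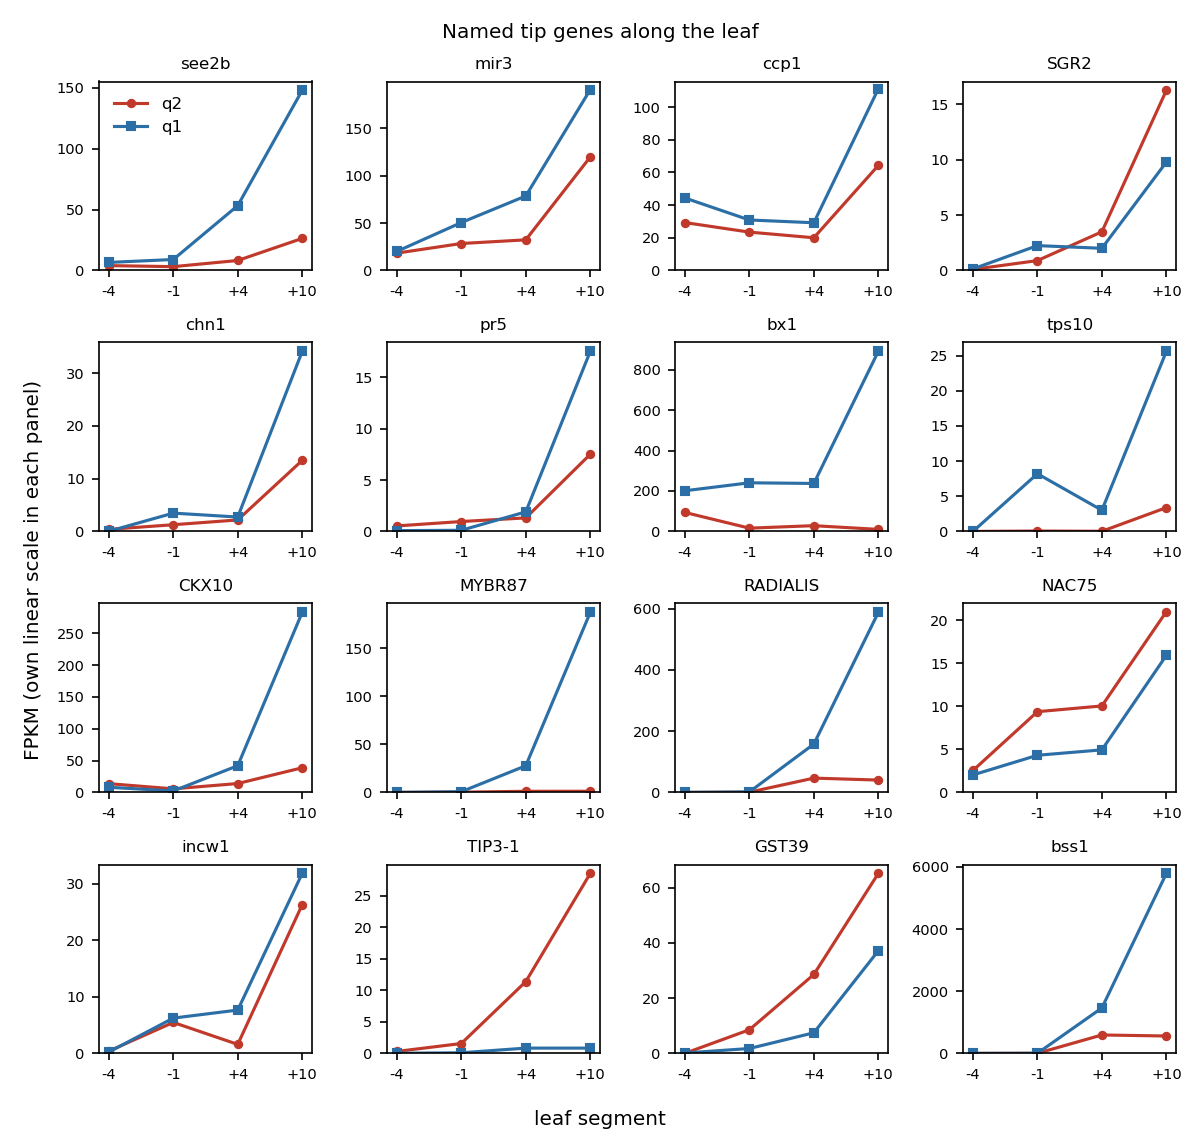
Levels of 16 named tip genes (FPKM, linear, a separate scale in each panel) in the 4 leaf segments, q2 as red circles and q1 as blue squares, 1 value per group and segment with no error available. see2b, bx1, CKX10, RADIALIS and bss1 lie lower in q2 at +10, while SGR2, TIP3-1 and GST39 lie higher, and incw1 nearly meets at the tip after a gap at +4.

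Transport and sugar genes gave mixed results. TIP3-1 (GRMZM2G305446, chromosome 5, 25511079 to 25512421), a water channel of the vacuolar membrane, had 0.315, 1.57, 11.4 and 28.5 FPKM in q2, and 0.0290, 0.101, 0.843 and 0.842 FPKM in q1. The gradient was thus carried by q2, with log2 changes of 3.76 ± 0.83 at +4 and 5.08 ± 1.05 at +10. Of the 21 aquaporin genes tested at +10, TIP3-1 was the 1 called higher, 11 were lower and the median log2 change was -0.71. incw1, a cell wall invertase that splits sucrose outside the cell, had 0.402, 5.49, 1.60 and 26.3 FPKM in q2, and 0.243, 6.25, 7.67 and 31.9 FPKM in q1. It was lower in q2 at +4 (-2.26 ± 0.49) but was not called at +10 in the authors' deposited table (-0.28 ± 0.26, Cuffdiff adjusted p = 0.124). In the sugar transport and cleavage list 10 genes were tested at +10, of which 2 were higher and 3 lower. ZIP4, of a metal transporter family, had 2.15, 5.38, 3.41 and 14.1 FPKM in q2, and 1.85, 5.17, 8.62 and 19.7 FPKM in q1, and was lower in q2 at +4 (-1.34 ± 0.44) and +10 (-0.48 ± 0.29). The metal list had 3 genes tested at +10, 1 higher and 2 lower.

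Genes named for glutathione transfer or safener induction differed in direction. GST39, a glutathione transferase, had 0.0389, 8.57, 28.6 and 65.2 FPKM in q2, and 0.154, 1.77, 7.47 and 37.2 FPKM in q1. It was higher in q2 at -1 (2.27 ± 0.68), +4 (1.94 ± 0.44) and +10 (0.81 ± 0.28). Of 18 glutathione transferase genes tested at +10, 7 were higher and 4 lower, with a median log2 change of 0.13. In2-2, named for induction by herbicide safeners, had 1.12, 1.74, 6.30 and 22.3 FPKM in q2, and 1.08, 1.86, 1.91 and 14.0 FPKM in q1, higher in q2 at +4 (1.73 ± 0.55) and +10 (0.67 ± 0.30). In2-1, which has the same kind of name, had 2.78, 8.45, 4.24 and 18.2 FPKM in q2, and 0.349, 4.20, 14.8 and 31.8 FPKM in q1. It was higher in q2 at -1 (1.01 ± 0.55) and lower at +4 (-1.81 ± 0.51) and +10 (-0.81 ± 0.32).

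The thiamine synthesis gene thi1 had 0.548, 1.00, 1.03 and 12.6 FPKM in q2, and 1.03, 1.80, 11.4 and 19.2 FPKM in q1. It was lower in q2 by -3.46 ± 0.60 log2 at +4 and by -0.60 ± 0.30 at +10, so the gap was narrower at the tip. Ann5, an annexin gene, had 1.72, 7.25, 9.48 and 19.7 FPKM in q2, and 1.04, 7.84, 34.5 and 107 FPKM in q1, lower at +4 (-1.86 ± 0.34) and +10 (-2.44 ± 0.27). A further 5 genes with symbols lie outside the naming rule and were picked after their values were seen. They include In2-1. Of the others, the thioredoxin h gene trh2 (512 FPKM in q2, 951 FPKM in q1), VP15, for the small subunit of molybdopterin synthase (39.6 FPKM in q2, 74.1 FPKM in q1), and AR5 (10.6 FPKM in q2, 14.6 FPKM in q1) were lower in q2 at +10, and the methionine sulfoxide reductase gene MSRA2 (20.3 FPKM in q2, 24.1 FPKM in q1) was not called.

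The gene with the steepest rise and the most abundant tip gene have roles that are not stated here. MGL3 (GRMZM2G096475, chromosome 6, 161966267 to 161967646) had the highest tip score, 3.54. It had 0.621, 0.634, 0.486 and 29.7 FPKM in q2, and 0.233, 0.326, 0.148 and 2.68 FPKM in q1. It was near silent below the tip in both groups, was tested only at +10 and was 11.1-fold higher there in q2 (log2 change 3.47 ± 0.50). bss1 (GRMZM2G168552, chromosome 8, 157100231 to 157101209) had 0.619, 4.09, 593 and 560.3 FPKM in q2, and 1.32, 4.34, 1462 and 5787 FPKM in q1. It was lower in q2 by -1.30 ± 0.30 log2 at +4 and by -3.37 ± 0.31 at +10, and its level in q2 did not rise beyond +4.

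Several tip genes without a symbol, picked after their values were seen, were as prominent. GRMZM2G022958 had 6.60, 27.5, 329 and 729 FPKM in q2, and 6.85, 33.1, 744 and 3136 FPKM in q1, lower at +4 (-1.18 ± 0.30) and +10 (-2.10 ± 0.30). GRMZM2G070167 had 7.25, 63.9, 589.8 and 1112 FPKM in q2, and 4.91, 32.7, 256 and 931 FPKM in q1, higher at -1 (0.97 ± 0.36) and +4 (1.21 ± 0.29) and not called at +10. The extremes in either direction rest on a group near 0. GRMZM2G093286 is listed at 0 in q2 and had 23.0 FPKM in q1 at +10 and was called lower, whereas GRMZM2G498613, a locus of 109 bases, had 32.2 FPKM in q2, is listed at 0 in q1 and was not called. GRMZM2G052908 was called higher at +10 with 34.2 FPKM in q2 and 0.480 FPKM in q1, although the implied error of its log2 change (6.16 ± 6.02) is almost as large as the change.

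In the middle of the leaf similar numbers of tip genes were higher and lower in q2. At +4, 147 were tested and 45 were higher and 47 lower in q2, with a median log2 change of 0.00. These are 30.6% higher and 32% lower. Over all 17969 tested genes 42.2% were called, 19.5% higher and 22.8% lower. Over tested genes of at least 10 FPKM at +10, 46.9% were called, 25.1% higher and 21.8% lower. With each group divided by its sum of FPKM, which moved the median of all genes by 0.45 log2 at +4, the median of the tip genes was 0.45. Nearer the base fewer tip genes reached the level at which Cuffdiff tests. At -1, 103 were tested and 20 (19.4%) were higher and 13 (12.6%) lower, with a median of 0.11. There 17.7% of all tested genes were called, 9.48% higher and 8.22% lower. Of tested genes of at least 10 FPKM at +10, 16.5% were called, 9.15% higher and 7.34% lower. At -4, 68 were tested and 14 (20.6%) were higher and 9 (13.2%) lower, with a median of 0.35. There 27.9% of all tested genes were called, 15.2% higher and 12.7% lower. Of tested genes of at least 10 FPKM at +10, 30.4% were called, 21.7% higher and 8.75% lower. Tip genes tested at -4 had enough transcript at the base to be tested and do not stand for all 150.

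The call at the tip and the call at +4 mostly had the same direction. Of the 147 tip genes tested in both, 28 were higher in both and 41 lower in both, while 4 were higher at +4 and lower at +10 and 1 was the reverse. Over all genes tested in both, these shares were 14.1%, 15.2%, 0.131% and 0.293%. Over genes of at least 10 FPKM at +10 they were 18%, 17%, 0.183% and 0.342%. Thus 93.2% of the 74 called in both kept their direction, against 98.6% of 4773 over all genes. Of the tip genes higher at +10, 82.4% were also higher at +4, against 65.6% over all genes. Of those lower at +10, 54.7% were also lower at +4, against 68.5% over all genes. The genes lower at +10 had a median level of 19.6 FPKM in q2 and 39.2 FPKM in q1 at the tip, and of 7.90 FPKM in q2 and 14.5 FPKM in q1 at +4. Those higher at +10 had a median of 30.6 FPKM in q2 and 14.0 FPKM in q1 at the tip, and of 8.94 FPKM in q2 and 2.999 FPKM in q1 at +4. Calls in 1 of these segments alone, among the 147 tip genes, were 13 higher (8.84%, against 6.59% over all genes) and 5 lower (3.4%, against 5.78%) at +4. At +10 alone they were 5 higher (3.4%, against 7.13%) and 30 lower (20.4%, against 6.87%). The rule used the levels at +4 and +10 and favours genes with more transcript at +10 in either group. The shares of the tip genes are therefore descriptive, and their distance from those of all genes was not tested.

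**Figure D5:**
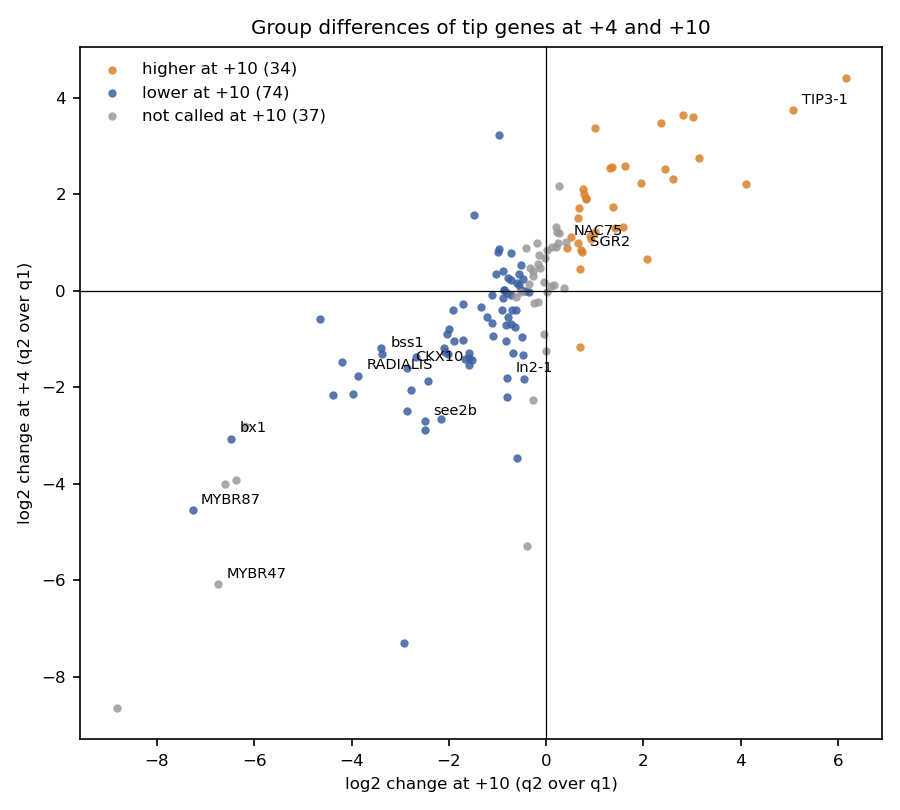
Log2 change of q2 over q1 at +4 (vertical axis) and +10 (horizontal axis) for the 145 tip genes with a level above 0 in both groups and a test in both segments, coloured by the Cuffdiff call at +10. Genes higher at +10 lie mostly in the upper right, and those lower at +10 spread from the lower left to around 0 at +4. TIP3-1 (5.08, 3.76) lies in the upper right and MYBR87 (-7.27, -4.55) in the lower left. TPS3 (-8.83, -8.64), not called at +10, lies further out than MYBR87.

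Agreement was weaker with the lower segments. Between -1 and +10, 28 tip genes were called in both and 67.9% had the same direction, against 82.6% over all genes. Between -4 and +10, 22 were called in both and 63.6% had the same direction, against 55% over all genes. Of the 57 tip genes tested in all 4 segments, 6 (10.5%) were higher in all 4 and 2 (3.51%) lower in all 4. bx1 and see2b were lower throughout, and GRMZM2G153536, GRMZM2G088689, GRMZM2G305856, GRMZM2G048549, GRMZM2G157113 and GRMZM2G048836 were higher throughout. Over all genes tested in all 4 segments 2.19% were higher and 1.21% lower throughout.

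Of the genes higher throughout, GRMZM2G048836 had 3.11, 13.02, 46.3 and 98.1 FPKM in q2, and 0.419, 3.18, 3.69 and 14.0 FPKM in q1, with log2 changes of 2.89 ± 0.68, 2.03 ± 0.43, 3.65 ± 0.38 and 2.81 ± 0.28. The level rose at each step in both groups and q2 was above q1 in each segment. Its neighbour on chromosome 6 in the set, GRMZM2G010433, lies 57826 bases away and was higher in q2 at +4 (2.32 ± 0.93) and +10 (2.61 ± 0.41). GRMZM2G088689 was the most abundant of the 6 at the tip, with 402 FPKM in q2 and 243 FPKM in q1 (0.73 ± 0.40).

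The tip genes lay on all 10 chromosomes, from 6 on chromosome 10 to 22 on chromosome 1, and none on the plastid or mitochondrial genome. There were 7 pairs of neighbouring tip genes within 200 kb of each other. On chromosome 7, GRMZM2G348125 and GRMZM2G410766 (173600065 to 173651881) had log2 changes of -1.89 and -2.08 at +10. On chromosome 1 the neighbours GRMZM2G179462 and GRMZM2G319781 differed, with 4.11 and -0.43. Coordinates are those of the deposited tables, whose genome build the sources used here do not name. Loci of 6 tip genes overlap another gene and 8 are under 500 bases long. Leaving out these loci kept 136 genes and all 8 counts of called genes within 1.5 times the reported count. With so few genes removed the counts could hardly move, so this says little about such loci.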

How the data were processed

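RNA-seq of 4 segments of leaf 2 was deposited as 4 tables, 1 per segment, with 2 groups of 3 libraries behind each. The submitters' processing notes name GSNAP for alignment and Cuffdiff for the comparison, with no version, and the sources used here do not name a genome build or annotation. Per the file headers, the authors computed for each gene 1 FPKM value per group, a Cuffdiff test statistic that is a score without fixed bounds, and both a p-value and its q-value, called the adjusted p. The lowest p in the deposited tables is 5e-05, which puts floors of 0.000492, 0.000777, 0.000288 and 0.000259 under the adjusted p at -4, -1, +4 and +10. Values per library were not used here, so there is no SD, and the tests rest on the spread that the authors estimated from 3 libraries a group, each of pooled plants.

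From the tables, the tip score, log2 changes of q2 over q1 and implied standard errors were computed with Python 3.11.15, pandas 2.3.3 and numpy 2.4.6. Genes with status HIDATA or FAIL in any table (3, all at +4) were left out, among them pep1. Where a group is listed at 0, no fold was computed. The ranking was tested on simulated data whose planted genes rose far more steeply to +10 than most tip genes. That check does not cover ranks near the threshold. Counts and medians of tip genes were set beside those of all tested genes, with no test of the set. Alternatives were the group choosing the genes, the pseudocount, the minimum level, the adjusted p and size of change, scaling by sums or medians, and, chosen after seeing the data, a minimum of 10 FPKM in both groups and a filter on short or overlapping loci.

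The tip genes, gene lists and tests were chosen with earlier results of these data known. RefSeq genes of Zm-B73-REFERENCE-NAM-5.0 supplied symbols: 18775 of 39634 identifiers matched, 2684 with a usable symbol. Lists were made by symbol, and 29 gene and list pairs with a misleading symbol were removed after the matches were seen. Of 36 lists 10 hold a tip gene. Genes named are, among tip genes with a symbol, the 10 highest ranked, the largest called rises and falls at +10 (8 each) and +4 (5 each), those called in all 4 segments and up to 4 per list, with the 3 genes on either side of the threshold.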

Additional observations from a re-analysis of the deposited data

Results flagged for a closer look

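In 5 tip genes Cuffdiff called a difference at both +4 and +10 in the authors' deposited tables, with opposite signs. The difference between the segments was not tested. GRMZM2G341658 was higher in q2 at +4 (log2 change 0.87, with 2.41 FPKM in q2 against 1.32 FPKM in q1) and lower at +10 (-0.98, with 15.0 FPKM in q2 against 29.5 FPKM in q1). GRMZM2G074672 was higher at +4 by 3.23 (6.04 FPKM in q2 against 0.646 FPKM in q1) and lower at +10 (-0.98, 8.53 FPKM in q2 against 16.8 FPKM in q1). GRMZM2G072890 had 0.81 at +4 (68.7 FPKM in q2 against 39.3 FPKM in q1) and -0.98 at +10 (87.4 FPKM in q2 against 173 FPKM in q1). GRMZM2G544775 had 0.78 at +4 (117 FPKM in q2 against 68.2 FPKM in q1) and -0.73 at +10 (156 FPKM in q2 against 258 FPKM in q1). In these 4 genes the level rose to the tip in both groups, but less in q2. GRMZM2G096407 was the reverse, with -1.15 at +4 (4.71 FPKM in q2 against 10.5 FPKM in q1) and 0.69 at +10 (23.2 FPKM in q2 against 14.4 FPKM in q1).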

How the results depend on the processing

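Of 96 recomputed counts of called tip genes, 75 stayed within 1.5 times the reported count. Scaling by sums or medians kept the deposited adjusted p, so it could drop a call only where the sign changed. The 8 counts under each scaling were unchanged and say little about how the calls depend on scaling. Choosing the genes from q2 alone gave 29 higher at -4, 34 higher at -1, 31 lower at +4, and 72 higher and 38 lower at +10. Choosing them from q1 alone gave 25 higher and 5 lower at -4, 31 higher and 7 lower at -1, and 30 lower at +4. Asking for a change of at least 2-fold gave 7 higher and 5 lower at -4, and 20 higher and 40 lower at +10. With no minimum level there were 5 lower of 40 tested at -4 and 11 higher of 55 at -1. At +4 that setting gave 28 higher and 31 lower of 113. With a minimum of 20 FPKM there were 28 higher of 95 tested at -4. The reported counts rest on 68, 103 and 147 tested genes at -4, -1 and +4. A smaller count among fewer tested genes need not be a smaller share. Asking for 10 FPKM in both groups at +10 left 101 genes, with 30 lower at +4 and 20 higher at +10. The median log2 change became 0.45 at +4 and -0.17 at +10 after scaling to equal sums, and 0.47 at +4 and 0.41 at +10 for genes chosen from q2 alone. The cause of these shifts was not tested. The pseudocount in the ranking kept 145 of the 150 genes at 0.1 FPKM and 122 at 5 FPKM. No called direction reversed among the named genes under either scaling, but sizes changed. Under equal sums, 35 of their log2 changes moved by at least the implied error and 66 did not. ZIP4 at +10, for example, went from -0.48 to -0.13. With 1 FPKM added to both levels, 11 moved and 90 did not. TPS2 at +10 then went from -9.72 to -5.78. The sums at +4 leave out pdk1 in q2 and pep1 in q1, each listed at 0 there.

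No paired analysis was possible because the deposited tables hold 1 value per group and no replicate numbers, so the replicate block and the leave-one-out runs were not run. Depth per library is unknown, and genes near 0 in a group limit the size of any fold.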
